A study of Mus musculus with 11 samples.

Results

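The genes described here are 10 genes of cytotoxic lymphocytes and natural killer (NK) cells, taken as a list by symbol: Gzma, Gzmb, Prf1, Nkg7, Ccl5, Klrd1, Klrb1c, Ncr1, Eomes and Tbx21. All 10 were found among the 23255 genes of the study's mouse lung RNA table, and all 10 had a mean of at least 1 in the deposited unit over the 11 libraries. The study compared whole lung of C57BL/6 mice in 3 groups. These were untreated controls (3 libraries), mice given naphthalene, a compound toxic to the club cells of the airway (3 libraries), and mice that received naphthalene and then osimertinib, a lung cancer drug that blocks mutant EGF receptor kinase (5 libraries). The osimertinib mice thus carried the naphthalene treatment too, and no group with osimertinib alone was analysed here. The series is about lung inflammation under osimertinib and a possible part of CD4+ T cells in it. Dose, timing, age and sex are not in the labels used here, and the labels do not say whether animals were pooled or what separates the replicates, so a p-value measures only the spread between these libraries, which may be technical.

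NK cells and cytotoxic T cells kill by releasing granules onto a target cell. Perforin opens the target's membrane and granzymes, which are serine proteases, enter and trigger its death. NK cells decide whether to kill by weighing activating receptors against inhibitory receptors that read class I molecules on the target. Eomes and T-bet (Tbx21), a pair of T-box transcription factors, set up this program. The lung normally holds many circulating NK cells in its capillaries. Several of the 10 genes are shared with cytotoxic T cells, and Ccl5 is also made by other cells. In whole tissue, fewer cells of a type and less RNA per cell cannot be told apart.

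Each value below is a TMM-normalised read level (RPM scale), that is, the reads of a gene scaled to the library's total read number after that total was multiplied by a normalisation factor (TMM, trimmed mean of M values). The libraries held between 5045361 and 13009975 gene reads. In naphthalene 1, 2 and 3 and in osimertinib 2, one unnamed gene (ENSMUSG00000119584) took 43.9 to 60.3% of the reads, against at most 0.0337% in the other 7 libraries. Those 4 libraries also held the fewest gene reads, 5045361 to 5284292, against 8420474 to 13009975 in the other 7. For both reasons the 4 were thin for the genes described here: each of the 10 genes rested on 1 to 37 reads there, and on 4 to 232 reads elsewhere. The lowest of all was Eomes in naphthalene 2, at 1 read. Osimertinib 3 lay at −72.7 on principal component 1, a component holding 38.4% of the variance. The sum of 5 neutrophil markers was 396 there, 388 in naphthalene 3 and 28.5 to 70.0 in the other 9 libraries. Defining lung markers were present in every library: the sum of 5 markers of alveolar type 2 cells was 10012 to 24482, and that of 4 club cell markers 2427 to 14535.

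For 8 of the 10 genes RefSeq's promoter table (GRCm38.p6) held a sequence, and the 250 bases before the annotated start were searched on both strands for 3 motifs. RUNX factors, whose motif was searched as ACCACA or TGTGGT, are known regulators of cytotoxic lymphocyte genes. This motif was in the windows of 6 of the 8 genes (Gzma, Gzmb, Prf1, Nkg7, Klrb1c and Ncr1), while 14.05% of all 32851 promoter windows of that length held it. The T-box motif, searched as GGTGTGA or TCACACC, was in 1 of the 8, Nkg7, and in 3.33% of all windows. The STAT motif TTCNNNGAA, which reads the same on both strands, was also in Nkg7 alone among the 8, and in 7.02% of all windows. The motifs do not overlap in the windows shown. No motif of the 3 was found in the windows of Eomes and Tbx21. A match describes these letters and is not a bound site. Shown here are a pair of granzymes, the granule membrane protein gene Nkg7, which held all 3 motifs, and the NK receptor gene Ncr1. Each is written 5′ to 3′ on the gene's own strand, with every match in capitals.
Gzma (chr13:113100982-113101231, minus strand): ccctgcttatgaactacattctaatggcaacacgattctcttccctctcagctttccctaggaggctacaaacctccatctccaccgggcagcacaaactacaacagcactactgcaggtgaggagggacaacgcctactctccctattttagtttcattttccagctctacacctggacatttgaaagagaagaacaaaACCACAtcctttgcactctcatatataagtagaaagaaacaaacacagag
Gzmb (chr14:56262335-56262584, minus strand): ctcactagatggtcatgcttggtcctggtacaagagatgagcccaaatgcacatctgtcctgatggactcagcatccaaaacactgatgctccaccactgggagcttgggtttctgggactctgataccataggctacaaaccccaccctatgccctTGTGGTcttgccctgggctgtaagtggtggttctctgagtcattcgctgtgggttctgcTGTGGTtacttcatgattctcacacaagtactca
Nkg7 (chr7:43436888-43437137, plus strand): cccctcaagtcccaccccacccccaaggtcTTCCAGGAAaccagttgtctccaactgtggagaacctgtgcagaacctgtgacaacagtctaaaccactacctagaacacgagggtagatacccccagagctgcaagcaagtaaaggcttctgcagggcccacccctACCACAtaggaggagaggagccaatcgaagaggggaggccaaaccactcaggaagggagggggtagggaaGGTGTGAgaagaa
Ncr1 (chr7:4337465-4337714, plus strand): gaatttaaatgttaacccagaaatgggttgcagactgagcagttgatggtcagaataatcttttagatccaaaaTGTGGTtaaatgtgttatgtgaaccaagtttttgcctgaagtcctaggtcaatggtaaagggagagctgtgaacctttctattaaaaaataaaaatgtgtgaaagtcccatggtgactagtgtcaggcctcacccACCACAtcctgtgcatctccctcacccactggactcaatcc
In Gzma the RUNX match lay at bases −50 to −45 from the start, and in Gzmb at −93 to −88 and −34 to −29. In Nkg7 the RUNX match lay at −83 to −78, the T-box match at −13 to −7 and the STAT match at −220 to −212. In Ncr1 the RUNX matches lay at −176 to −171 and −41 to −36. Runx3 itself was at 5.33 ± 1.52 (SD, n = 3) in control, 4.92 ± 2.26 (SD, n = 3) in naphthalene and 4.14 ± 0.591 (SD, n = 5) in osimertinib libraries, with overlapping ranges.

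Set per kilobase of transcript (the longest in the GENCODE M21 basic annotation), the control libraries ranked the 10 genes from the chemokine gene Ccl5 down to the transcription factors. Ccl5 was at 17.6 ± 1.3 (SD, n = 3) normalised units per kilobase and Gzma at 12.1 ± 1.28. Nkg7 followed at 5.56 ± 0.602, Klrd1 at 3.79 ± 1.01 and Ncr1 at 2.64 ± 0.250. Gzmb (2.13 ± 0.501), Prf1 (1.98 ± 0.221) and Klrb1c (1.83 ± 0.183) each differed from the next of these 3 by less than 1 SD, so their order is not resolved. Tbx21 (0.755 ± 0.0200) and Eomes (0.536 ± 0.0908) were lowest. The levels below are again not set per kilobase, and serve to compare libraries for 1 gene at a time.

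The summed level of the 10 genes was low in osimertinib 1, 2 and 3, at the control level in osimertinib 4 and between in osimertinib 5. Single genes departed from this order, among them Klrd1, which was not low in osimertinib 3, and Eomes, which was lower in osimertinib 5 than in osimertinib 2. Osimertinib 1, 2 and 3 held 53.5, 41.0 and 59.8% of the control mean, osimertinib 4 held 107% and osimertinib 5 held 77.2%. Naphthalene 1, 2 and 3 held 81.6, 76.2 and 123%, and the controls 94.9 to 106%. A sum weighs the genes with high values, Gzma and Ccl5, most. The median of the 10 genes, each against its own control mean, was 75.9, 70.1 and 105% in naphthalene 1 to 3. In osimertinib 1 to 5 that median was 58.6, 40.2, 43.7, 104 and 77.5%. Within naphthalene 3 the genes ran from 65.5% (Prf1) to 176% (Ccl5). All 10 genes lay below every control in osimertinib 1 and in osimertinib 2, 9 of 10 did so in osimertinib 3 and in osimertinib 5, and 1 of 10 in osimertinib 4. In naphthalene 1, 2 and 3 this held for 6, 8 and 3 genes. These counts carry no test. The share of all genes below every control was not computed for single libraries, so the counts have no background to be read against.

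**Figure D1:**
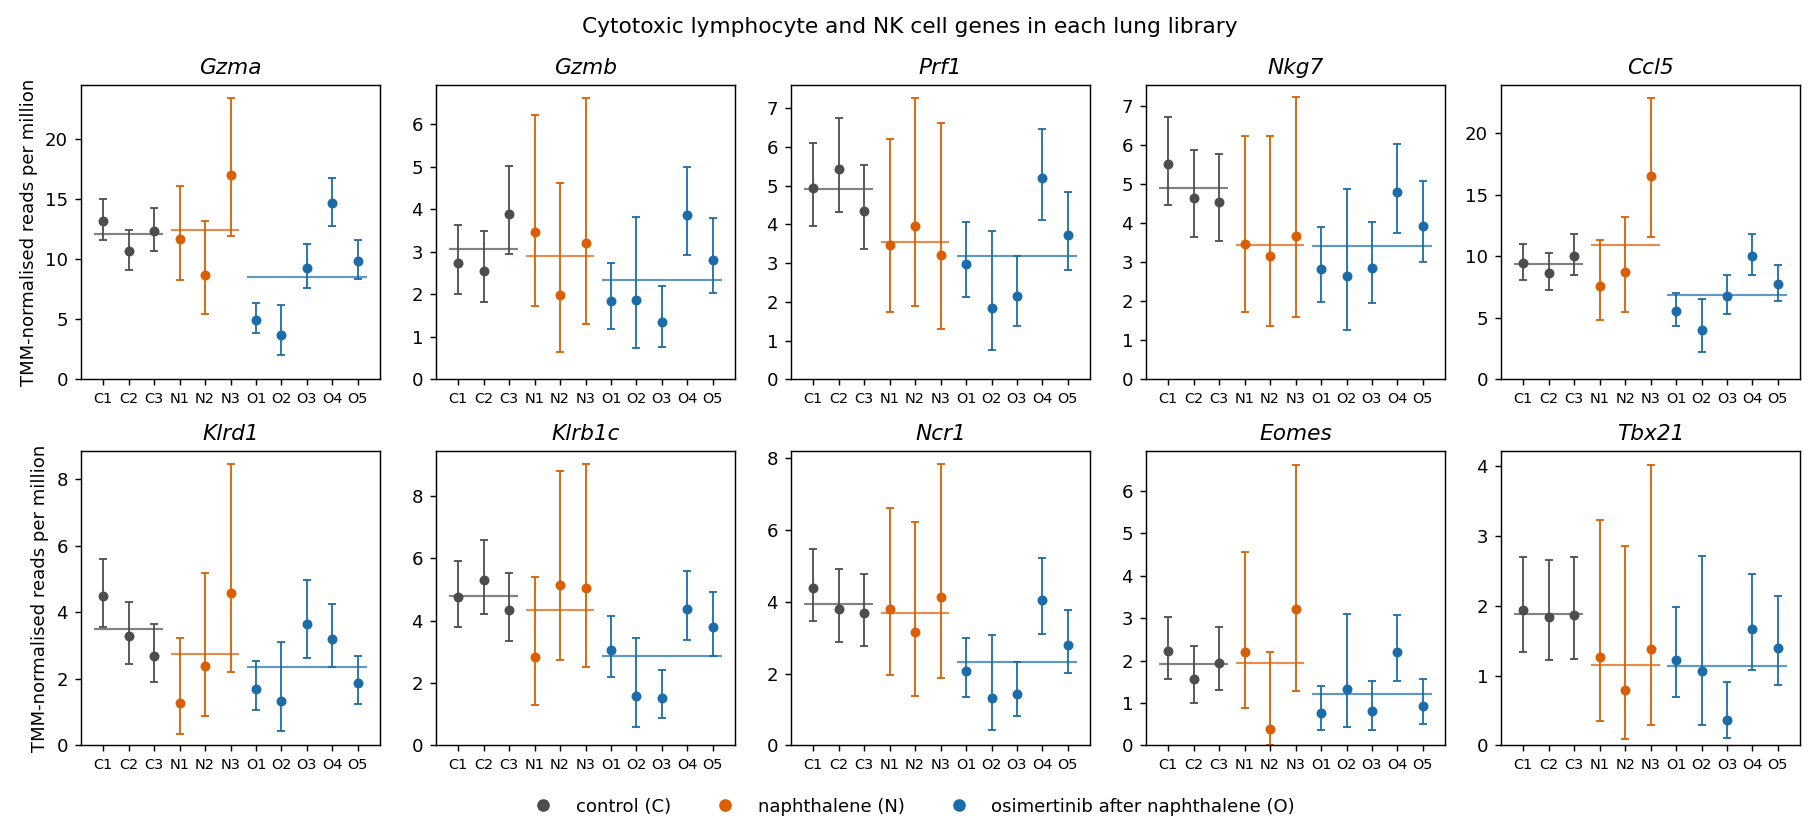
Level of each of the 10 genes (vertical axis, TMM-normalised RPM, starting at 0) in the 11 libraries (horizontal axis, C control, N naphthalene, O osimertinib after naphthalene). Points are libraries, vertical bars are exact 95% Poisson intervals for counting error only, and horizontal lines are group means. Osimertinib 4 sits at the control level in most panels while osimertinib 1 to 3 sit low, and the naphthalene bars are wide because each rests on few reads.

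Gzma encodes granzyme A, the tryptase of the killing granule. It was at 13.2, 10.7 and 12.4 in control 1, 2 and 3, and at 11.7, 8.70 and 17.0 in naphthalene 1, 2 and 3. In osimertinib 1 to 5 it was at 4.96, 3.71, 9.27, 14.6 and 9.86. Osimertinib 1 and 2 lay below every other library, and osimertinib 4 lay above every control, so the groups overlapped. The log2 difference of osimertinib from naphthalene was −0.59 (SE 0.34; adjusted p = 0.595, limma). It was −0.36 without naphthalene 3 and −0.37 without osimertinib 2, moves of over 1.5 times. That of naphthalene from control was -8.83e-05 (SE 0.38), with a 95% interval of −0.84 to 0.84.

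Gzmb encodes granzyme B, which cleaves its targets after aspartate and activates caspases. Its values were 2.73, 2.55 and 3.88 in the controls, and 3.47, 1.98 and 3.21 with naphthalene. With osimertinib they were 1.83, 1.85, 1.34, 3.86 and 2.80. Osimertinib 1, 2 and 3 were the lowest 3 of the 11 libraries, and osimertinib 4 was level with the highest control. The log2 difference from naphthalene was −0.25 (SE 0.25; adjusted p = 0.781, limma). It was −0.43 without naphthalene 2 and −0.40 without osimertinib 4, and −0.14 without naphthalene 1 and −0.13 without osimertinib 3.

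Prf1 encodes perforin, the pore-forming protein. The controls had 4.94, 5.43 and 4.34, and the naphthalene libraries 3.47, 3.96 and 3.21. Osimertinib 1 to 5 had 2.98, 1.85, 2.14, 5.19 and 3.73. Every naphthalene library lay below every control, on 7 to 11 reads each. The log2 difference of naphthalene from control was −0.38 (SE 0.27; adjusted p = 0.818, limma), and that of osimertinib from control −0.55 (SE 0.24; adjusted p = 0.963).

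Nkg7 encodes a granule membrane protein needed for granule release. It was at 5.51, 4.65 and 4.55 in control, and at 3.47, 3.16 and 3.67 in naphthalene libraries. Osimertinib 1 to 5 gave 2.82, 2.65, 2.85, 4.79 and 3.93. The naphthalene values lay below all controls and in the middle of the osimertinib values. Its log2 differences were −0.41 (SE 0.21; adjusted p = 0.715, limma) for naphthalene from control, −0.03 (SE 0.19; adjusted p = 0.969) for osimertinib from naphthalene and −0.44 (SE 0.19; adjusted p = 0.961) for osimertinib from control. The sign of the −0.03 turned when naphthalene 3, osimertinib 1, osimertinib 2 or osimertinib 3 was left out (at most 0.03).

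Ccl5 encodes a chemokine that draws T cells, NK cells and monocytes and is stored in cytotoxic lymphocytes. Its controls were 9.43, 8.64 and 10.03. Naphthalene 1 and 2 were close to them at 7.58 and 8.70, and naphthalene 3 was the highest of the 11 libraries at 16.5. The osimertinib values were 5.57, 3.97, 6.77, 10.04 and 7.73. The log2 difference of osimertinib from naphthalene was −0.59 (SE 0.27; adjusted p = 0.489, limma). Without naphthalene 3 it was −0.27, a move of over 1.5 times. Of the 10 genes Ccl5 alone had a positive log2 difference of naphthalene from control (0.13, SE 0.30; adjusted p = 0.969), and without naphthalene 3 that turned to −0.18.

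Klrd1 encodes CD94, the partner of the NKG2 receptors that read the nonclassical class I molecule Qa-1. Controls gave 4.49, 3.27 and 2.67, and naphthalene 1.26, 2.37 and 4.59 on 4 to 10 reads. Osimertinib 1 to 5 gave 1.68, 1.32, 3.65, 3.19 and 1.87. Here osimertinib 3 was not low, and all 3 groups overlapped. The log2 difference of osimertinib from naphthalene, −0.12 (SE 0.31; adjusted p = 0.922, limma), became 0.22 without naphthalene 3.

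Klrb1c encodes NK1.1, the activating receptor by which NK cells of C57BL/6 mice are identified. The controls were at 4.77, 5.30 and 4.34, and the naphthalene libraries at 2.84, 5.14 and 5.05. Osimertinib 1 to 5 were at 3.05, 1.59, 1.51, 4.39 and 3.80. Osimertinib 2 and 3 were the lowest 2 of the 11 libraries. The log2 difference was −0.50 (SE 0.28; adjusted p = 0.577, limma) from naphthalene and −0.65 (SE 0.28; adjusted p = 0.963) from control, the difference farthest from 0 among the 10 genes in that comparison. Klrb1c belongs to a family of similar genes, and how reads were split between them is not given in the sources used here.

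Ncr1 encodes NKp46, an activating receptor nearly restricted to NK cells and related innate lymphoid cells, so it separates NK cells from T cells better than the granule genes do. Control 1 to 3 had 4.38, 3.80 and 3.68, and naphthalene 1 to 3 had 3.79, 3.16 and 4.13. Osimertinib 1 to 5 had 2.06, 1.32, 1.43, 4.06 and 2.80. Osimertinib 1, 2, 3 and 5 lay below all 6 libraries of the other groups, and osimertinib 4 lay among the controls. The exact 95% Poisson intervals, for counting error only, of osimertinib 1, 2, 3 and 5 were 1.36 to 3.00, 0.430 to 3.09, 0.815 to 2.31 and 2.02 to 3.78, while that of osimertinib 4 was 3.10 to 5.21. Naphthalene 1, 2 and 3, on 12, 8 and 9 reads, had intervals of 1.96 to 6.62, 1.37 to 6.24 and 1.89 to 7.84, which overlap all of these. The intervals of control 1, 2 and 3 were 3.45 to 5.47, 2.88 to 4.91 and 2.77 to 4.79. The log2 difference of osimertinib was −0.55 (SE 0.25, 95% interval −1.09 to −0.02; adjusted p = 0.469, limma) from naphthalene and −0.63 (SE 0.25, 95% interval −1.17 to −0.10; adjusted p = 0.910) from control. In both comparisons this was the smallest unadjusted p among the 10 genes.

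Eomes, the T-box factor of mature NK cells and memory CD8+ T cells, had 2.22, 1.57 and 1.94 in control and 2.21, 0.396 and 3.21 in naphthalene libraries. The naphthalene values rest on 7, 1 and 7 reads, and span the whole range of the gene. Osimertinib 1 to 5 had 0.763, 1.32, 0.802, 2.19 and 0.933, with osimertinib 4 again at the control level. The log2 difference of osimertinib from naphthalene was −0.31 (SE 0.33; adjusted p = 0.785, limma). It was −0.78 without naphthalene 2 and 0.02 without naphthalene 3.

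Tbx21 encodes T-bet, which drives interferon gamma production and cytotoxic function. It was the steadiest of the 10 genes in control, at 1.93, 1.83 and 1.87, and was at 1.26, 0.791 and 1.38 in naphthalene libraries on 2 to 4 reads. In osimertinib 1 to 5 it was at 1.22, 1.06, 0.356, 1.66 and 1.40. Every treated library lay below every control. The log2 difference from control was −0.44 (SE 0.25; adjusted p = 0.748, limma) with naphthalene and −0.46 (SE 0.22; adjusted p = 0.999) with osimertinib, and the treated groups differed by −0.03 (SE 0.22). Without osimertinib 3 the difference between the treated groups was 0.13.

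In naphthalene against control, the injury alone, 9 of 10 log2 differences were below 0, with a median of −0.14, where 62% of all 16225 genes tested were below 0 with a median of −0.06. No member passed limma's test (0 of 10; 0% of all genes higher and 0% lower passed), 0 of 10 had an unadjusted p under 0.05 (5.74% of all genes were lower and 1.73% higher at that level), and edgeR called 0 of 10. In 3 of 10 genes (Prf1, Nkg7 and Tbx21) every naphthalene value was under every control value, where 11.2% of all genes were lower without overlap. DESeq2 gave no adjusted p for any of the 10 genes in this comparison. The sign of the median depends on the model: when the fit also held a term for the high share of the unnamed gene, estimated from osimertinib 2 against the other osimertinib libraries, the median was 0.25 and 3 of 10 genes were below 0.

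In osimertinib against naphthalene, where both groups had the injury, all 10 log2 differences were below 0, between −0.59 and −0.03, with a median of −0.28, where 39.5% of all genes were below 0 with a median of 0.06. No member passed limma's test (0 of 10; 0% of all genes passed in either direction), nor edgeR's or DESeq2's. At an unadjusted p under 0.05 stood 1 of 10 genes, Ncr1, where 3.22% of all genes were lower at that level. Blocking on the replicate number gave a count of 4 and a median of −0.49 (adjusted p of at least 0.295). Osimertinib 4 and 5 have no partner, so that estimate is the difference of osimertinib 1, 2 and 3 alone from naphthalene and leaves out the 2 osimertinib libraries with the highest sums. With the read-share term the count was 4 and the median −0.63 (adjusted p of at least 0.627). The count was also 4 without osimertinib 4 (adjusted p of at least 0.330). It was 0 when any 1 control, naphthalene 3 or any 1 of osimertinib 1, 2 and 3 was left out, 1 without osimertinib 5 and 2 without naphthalene 1 or naphthalene 2. No gene of the 10 had groups without overlap (2.12% of all genes were lower without overlap). The direction also rests on the scale: when libraries were scaled to equal totals, all 10 differences were above 0 (median 0.53), where the median gene lay at 1.10, and all 10 were below that median gene. Those totals include the reads of the unnamed gene, whose share was high in every naphthalene library but, among the osimertinib libraries, only in osimertinib 2. Without osimertinib 2 and 3 together the median was −0.14, with 7 of 10 below 0.

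Osimertinib against control sets the combined treatment against untreated lung, with the same control libraries as above. Again 10 of 10 log2 differences were below 0, between −0.65 and −0.32, with a median of −0.46 where 52% of all genes were below 0 with a median of −0.0082. Limma called 0 of the 10 genes (0% of all genes were called lower and 0.00616% higher, which is 1 gene), and so did edgeR and DESeq2. The 1 called gene, Mmp2, is no member. At an unadjusted p under 0.05 stood 4 of 10 (Prf1, Nkg7, Klrb1c and Ncr1), where 2.5% of all genes were lower at that level. The count was 0 without osimertinib 2, without control 1 or without control 2, 1 without control 3 or osimertinib 3, 2 without osimertinib 1 and 7 without osimertinib 4, and 10 of 10 values stayed below 0 in each of these. In 1 of 10 genes, Tbx21, the groups did not overlap (3.43% of all genes were lower and 2.91% higher without overlap). Without osimertinib 2, the 1 osimertinib library with the high read share, the median was −0.40. Osimertinib 3 stayed in, with a normalisation factor of 0.863 against 1.49 to 1.53 in the controls, so the libraries still differed in composition. Without osimertinib 2 and 3 together the median was −0.30.

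**Figure D2:**
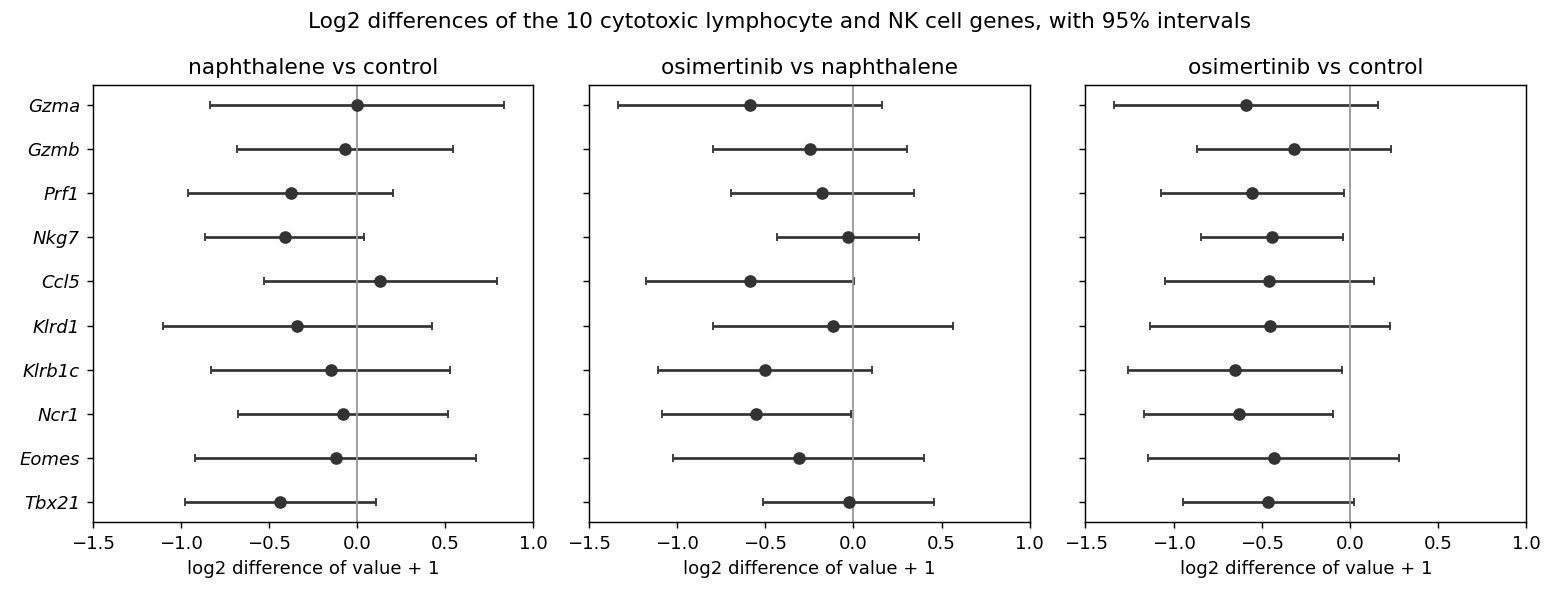
Log2 difference of value + 1 (horizontal axis) for each of the 10 genes in the 3 comparisons, from limma. Points are estimates and bars their 95% intervals, not adjusted for the number of genes. All 10 points lie below 0 in both comparisons with osimertinib, and the bars of Ncr1 exclude 0 in both, but no gene passed after adjustment over 16225 genes.

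**Figure D3:**
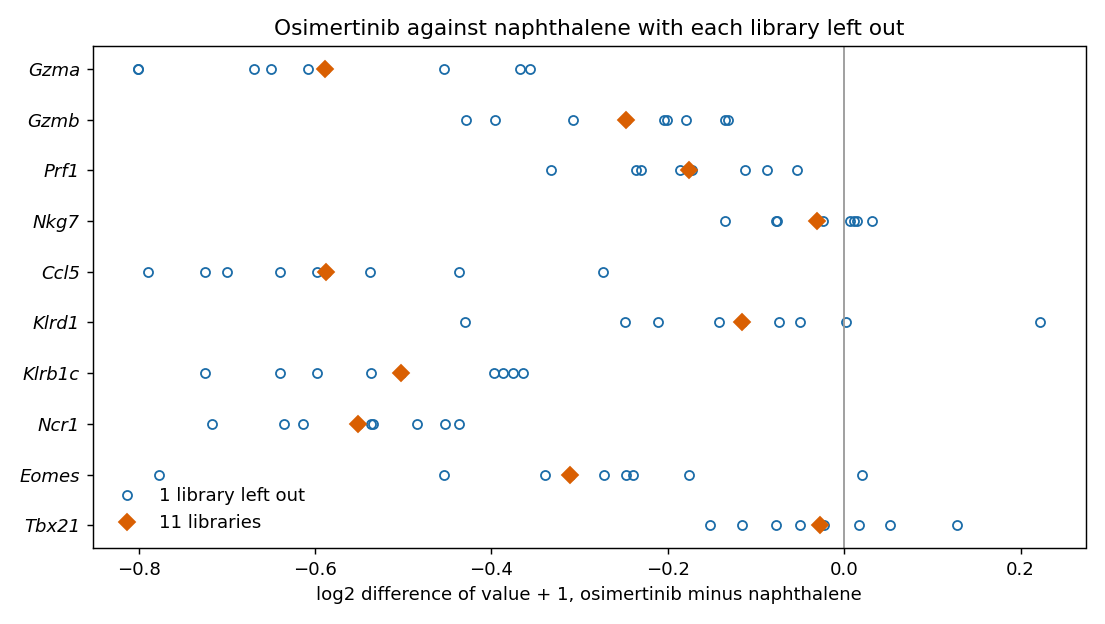
Log2 difference of osimertinib from naphthalene (horizontal axis) for each gene with all 11 libraries (diamonds) and with each of the 11 libraries left out in turn (circles). The circles of Gzma, Gzmb, Prf1, Ccl5, Klrb1c and Ncr1 stay below 0, and those of Nkg7, Klrd1, Eomes and Tbx21 cross it.

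Other genes of the granule pathway were read from a list of its known members. Of 16 listed, 14 were in the table and 12 were tested, and in osimertinib against naphthalene 0 rose and 0 fell, with 9 of 12 above 0 and a median of 0.08. The 3 highest were Ctsc, Lyst and Tnfsf10. Ctsc, the protease that activates granzymes and is also made by macrophages, was at 206 ± 28.0 (SD, n = 5) with osimertinib and 203 ± 6.34 (SD, n = 3) with naphthalene, against 157 ± 15.3 (SD, n = 3) in control. Lyst, a regulator of lysosome-related granules, was at 112 ± 9.07, 126 ± 9.76 and 111 ± 4.33, and Tnfsf10, the death ligand TRAIL, at 95.9 ± 9.66, 90.7 ± 8.96 and 120 ± 7.95, each in that order of groups. Fasl, the other death ligand of cytotoxic lymphocytes, was chosen after its values were seen. It was at 0.494 ± 0.204 (SD, n = 5) with osimertinib, below every naphthalene library (1.72 ± 0.720, SD, n = 3) and every control (1.28 ± 0.410, SD, n = 3). The gap to control was narrow, with osimertinib 4 at 0.798 and control 1 at 0.852. Naphthalene 1, 2 and 3 had 0.947, 2.37 and 1.84, where 1 read was worth 0.316, 0.396 and 0.459, so few reads carried these values. Its log2 difference from naphthalene was −0.84 (SE 0.22; adjusted p = 0.233, limma). The osimertinib mean of Fasl lay under the minimum mean of 1, which the gene met only through the other groups, so this difference is a description only.

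Of 36 listed NK receptors, killer lectin-like receptors and adaptors, 34 were in the table and 25 were tested. In osimertinib against naphthalene 0 rose and 0 fell, 16 of 25 were below 0, and the median was −0.09. The highest 3 were Tyrobp and Fcer1g, adaptors that NK cells share with myeloid cells, and the integrin Itga2. Tyrobp was at 178 in osimertinib 3 and 73.4 in naphthalene 3, the libraries with high neutrophil markers, and at 24.5 to 45.7 in the other 9. Fcer1g was at 28.0 ± 15.04 (SD, n = 5) with osimertinib and 21.9 ± 7.27 (SD, n = 3) with naphthalene, and Itga2 at 24.4 ± 2.39 and 25.0 ± 2.82. Outside these adaptors the list was mixed. The genes named next were picked after their values were seen, on both sides of 0. Sh2d1b1, an adaptor of SLAM receptors, had a log2 difference of 0.50 (SE 0.28; adjusted p = 0.577, limma) from naphthalene. The lectin-like receptor Klre1 was at 0.45 (SE 0.28; adjusted p = 0.623) and the receptor Cd160 at 0.34 (SE 0.19; adjusted p = 0.587). Neither was above control: Klre1 differed from control by −0.94 with naphthalene and −0.49 with osimertinib, and Cd160 by −0.45 and −0.11. The lowest of the 25 against naphthalene was Klrc2 at −1.06 (SE 0.31, adjusted p = 0.270, limma). The highest was Fcgr3 at 0.68 (SE 0.35, adjusted p = 0.538, limma), and at 0.88 from control, where the groups did not overlap. Il2rb, the receptor chain through which interleukin 15 sustains NK cells, was at 8.90 ± 2.45 (SD, n = 5) with osimertinib, 13.2 ± 3.27 (SD, n = 3) with naphthalene and 13.7 ± 0.849 (SD, n = 3) in control. Its log2 difference was −0.53 (SE 0.21; adjusted p = 0.411, limma) from naphthalene and −0.61 (SE 0.21; adjusted p = 0.775) from control, where the groups did not overlap. Slamf6, a receptor of T, B and NK cells, was at 4.04 ± 1.31 (SD, n = 5), below all naphthalene (7.59 ± 1.21, SD, n = 3) and control libraries (7.15 ± 1.23, SD, n = 3), with a log2 difference of −0.81 (SE 0.23; adjusted p = 0.263) from naphthalene. The gap to control was very narrow, with osimertinib 4 at 5.72 and control 3 at 5.81. Genes of the Klra and Klrc families resemble each other, so their separate values are uncertain.

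In the list of lymphocyte chemokines, cytokines and their receptors 17 of 18 genes were in the table and 11 were tested, with 0 called and a median of 0.08 in osimertinib against naphthalene. Its 3 highest genes, the egress receptor S1pr1, the monocyte receptor Ccr2 and the chemokine Cx3cl1, are expressed well beyond lymphocytes. They were at 142 ± 33.2, 39.1 ± 6.19 and 21.4 ± 6.68 (SD, n = 5) with osimertinib and 134 ± 24.2, 35.7 ± 5.54 and 23.8 ± 4.43 (SD, n = 3) with naphthalene. Of 17 genes of interleukin 15, 12 and 18 signalling 15 were tested, with 0 called, 12 below 0 and a median of −0.08. The kinase Jak1 (157 ± 5.75 against 167 ± 28.6), the receptor Il18r1 (83.3 ± 9.15 against 84.4 ± 9.87) and the factor Stat5b (47.6 ± 0.952 against 51.3 ± 4.56) were the highest, with osimertinib named first. Of 16 transcription factors of NK and effector T cells 15 were tested, with 0 called, 10 below 0 and a median of −0.07. Ets1 was at 187 ± 21.96 against 197 ± 13.5, Zeb2 at 186 ± 17.9 against 194 ± 15.9 and Klf2 at 126 ± 60.1 against 72.8 ± 14.5. In naphthalene against control and in osimertinib against control, too, 0 genes of these 5 lists were called.

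Class I molecules and other ligands that NK receptors read were taken as a further list. Of 19 genes 17 were tested, and 0 were called in any of the 3 comparisons. In naphthalene against control 14 of 17 were below 0 (median −0.30), 10 of 17 were lower without overlap (11.2% of all genes were), and 5 of 17 were lower at an unadjusted p under 0.05 (5.74% of all genes were). In osimertinib against naphthalene 15 of 17 were above 0 (median 0.27), 5 of 17 were higher at that level (7.08% of all genes were) and 1 was lower (3.22%). In osimertinib against control 8 of 17 were above 0 and 9 below (median −0.04). B2m, the light chain of class I, was at 590 ± 177 (SD, n = 5) with osimertinib, 449 ± 89.7 (SD, n = 3) with naphthalene and 445 ± 3.93 (SD, n = 3) in control. H2-K1 was at 380.0 ± 56.0, 302 ± 22.8 and 365 ± 27.9 and H2-D1 at 399 ± 84.4, 325 ± 15.3 and 421 ± 60.5 in the same order. H2-K1's log2 difference of osimertinib from naphthalene was 0.32 (SE 0.13; adjusted p = 0.407, limma). H2-T23, which encodes the Qa-1 chain read by CD94, was picked after its values were seen: it was at 68.2 ± 15.2 with osimertinib, 45.8 ± 8.57 with naphthalene and 57.6 ± 2.34 in control, and its log2 difference of osimertinib from naphthalene was 0.55 (SE 0.18; adjusted p = 0.306).

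Markers of other lymphocytes were read in the same libraries. The sum of 10 T cell markers was 47.7 to 49.8 in control, 38.2 to 52.8 in naphthalene and 27.9 to 44.5 in osimertinib libraries. As a percentage of the control mean, osimertinib 1 to 5 held 73.5, 58.1, 91.4, 82.9 and 57.2% of the T cell sum. The sum of 6 B cell markers was 112 to 181 in control, 119 to 183 in naphthalene and 33.6 to 85.1 in osimertinib libraries, and osimertinib 1 to 5 held 52.7, 41.1, 35.4, 56.2 and 22.2% of its control mean. Osimertinib 4 thus held control-level cytotoxic genes with B cell markers at about the level of osimertinib 1. The ratio of the summed cytotoxic genes to the summed T cell markers, which no scaling of a library can change, was 0.959 to 1.10 in control, 0.829 to 1.17 in naphthalene and 0.753, 0.729, 0.676, 1.34 and 1.39 in osimertinib 1 to 5. Osimertinib 1, 2 and 3 were the lowest of the 11 libraries in this ratio, and osimertinib 4 and 5 the highest. The CD8 gene Cd8a was at 2.20 ± 0.555 (SD, n = 5) with osimertinib, 3.82 ± 0.943 (SD, n = 3) with naphthalene and 4.56 ± 0.833 (SD, n = 3) in control, and its log2 difference from control was −0.80 (SE 0.20; adjusted p = 0.452, limma).

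**Figure D4:**
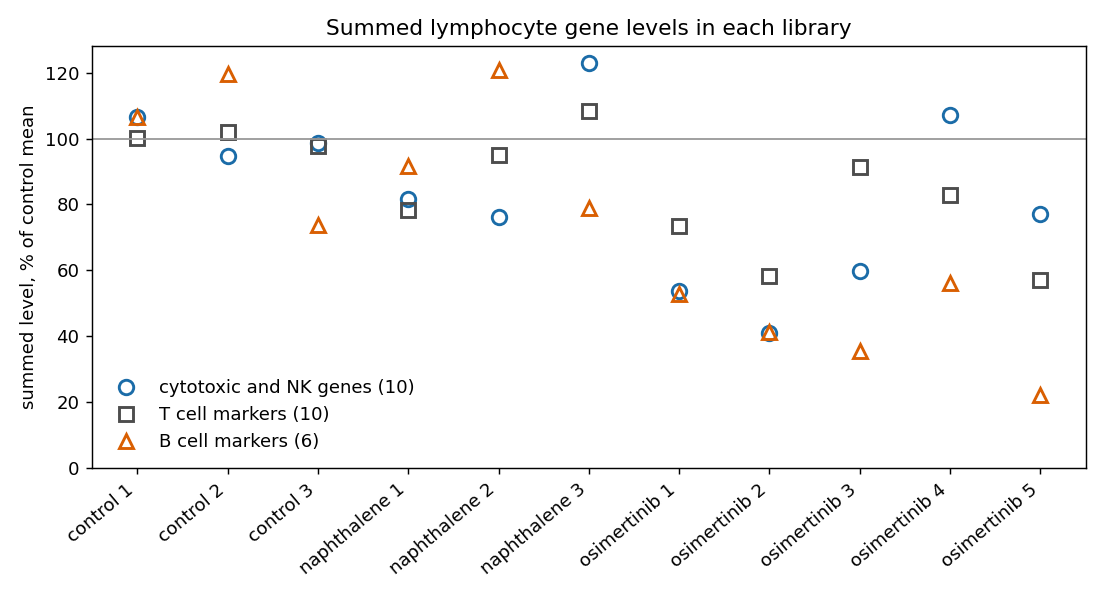
Summed level (vertical axis, % of the mean of the 3 controls, starting at 0) of the 10 cytotoxic and NK genes, 10 T cell markers and 6 B cell markers in the 11 libraries (horizontal axis). Each symbol is 1 library. B cell markers are low in all 5 osimertinib libraries, while the cytotoxic and NK genes are low in osimertinib 1 to 3 and at 107% in osimertinib 4.

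Markers of other cells that can express single members were given beside these values, and their part in the result was not tested. The sum of 5 platelet markers, a source of Ccl5 protein, was 14.5 to 34.6 in control, 11.5 to 19.8 in naphthalene and 16.7 to 27.8 in osimertinib libraries, highest among the last in osimertinib 4. Of 7 mast cell and basophil markers 4 were in the table, with a sum of at most 1.96 in any library. Markers of type 2 innate lymphoid cells (5 of 6 in the table) summed to 67.8 to 81.9 in control, 71.1 to 80.3 in naphthalene and 72.3 to 91.4 in osimertinib libraries, and markers of plasmacytoid dendritic cells to 196 to 221, 185 to 209 and 198 to 226. Red cell markers, which follow the blood left in the lung, were at 1925 to 3558, 374 to 2757 and 745 to 10355. Among the osimertinib libraries they were highest in osimertinib 3 (10355), where the cytotoxic genes were low, and next in osimertinib 4 (3509), where they were not.

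Genes whose pattern was most like that of the 10 were sought among 11693 others with a mean of at least 5, by Pearson correlation over the 11 libraries of log2(value + 1) with the mean standardised value of the 10 genes. The 8 most alike were Uqcc1 (r = 0.891), Lrtm2 (0.887), Sil1 (0.861), Gm6480 (0.860), Slc52a3 (0.837), Vegfa (0.830), Dbhos (0.829) and Fam174b (0.821). All 8 were read in the same libraries as the 10 genes and share their depth and scaling, so this is a description only. Lrtm2 was at 12.1 to 13.1 in control, 8.70 to 13.3 in naphthalene and 4.10 to 9.93 in osimertinib libraries, with the 3 lowest values in osimertinib 1 to 3. Vegfa, the endothelial growth factor, was at 417 to 457 in control, 366 to 441 in naphthalene and 307 to 451 in osimertinib libraries, with the 2 lowest values in osimertinib 2 and 3.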

How the data were processed

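Libraries were made from total lung RNA, depleted of ribosomal RNA, with a kit that keeps strand, per the labels' protocols. The authors deposited 1 table of a normalised signal per gene and library. Bowtie2, edgeR, RSEM 1.3.0, Trimmomatic 0.38 and GRCm39 are listed, per the submitters' processing notes, with no roles given. All values (100%) were whole multiples of their library's smallest value within 0.01, and the implied factors equalled edgeR's TMM factors (largest difference 1.78e-15), so whole reads were recovered. Symbols for 23123 of 23255 IDs came from GENCODE M21, whose build (GRCm38) differs from the files', so it served for names and lengths only. The coordinates printed with the promoters are those of RefSeq's table (GRCm38.p6).

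Genes with a mean of at least 1 (16225) entered limma 3.58.1 (under R 4.3.3) on the log2(value + 1) scale, with a mean-variance trend. All 3 groups shared the fit, which left 8 residual degrees of freedom, with Benjamini-Hochberg adjustment over all of them and a threshold of 0.05. This scale understates changes of low genes. The script was tested on simulated data. The 10 genes and all lists were chosen with earlier results of these data known. Named beside the 10 genes by rule were the 3 highest of each list and the 8 most alike genes. Further genes, among them Fasl, Klrc2, Fcgr3, Il2rb, Slamf6, H2-T23, Runx3 and Cd8a, were named outside this rule. Alternatives ran DESeq2 1.42.0 or edgeR 4.0.16 on recovered reads, and used other pseudocounts, filters, scalings, weights, a read-share term and libraries left out.

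Pairing by replicate number was checked by the correlation of deviations from group means across genes. Between naphthalene and osimertinib it was 0.122, 0.159 and 0.523. Between those groups, only naphthalene 3 and osimertinib 3, the libraries with high neutrophil markers, were each other's closest match. Osimertinib 1 was closest to naphthalene 2, osimertinib 2 to naphthalene 1, and naphthalene 1 and 2 to osimertinib 4. The other comparisons had negative correlations among theirs. Between naphthalene and control, naphthalene 2 and control 2 (0.203) were each other's closest match. So were naphthalene 1 and control 3, and naphthalene 3 and control 1, whose numbers differ. Whether the numbers pair the libraries is thus not settled, so the main fit was not paired and the replicate block was an alternative only.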

Additional observations from a re-analysis of the deposited data

Results flagged for a closer look

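Among the osimertinib libraries, the 10 genes and 16 marker sums were checked for a single library far from the other 4 (26 checks, of which chance flags about 1 in 20). None of the 10 genes was picked out, and 6 marker sums were. Of these 6, 5 were in osimertinib 3: neutrophil markers at 396 (34.5 to 65.7 in the other 4), monocyte markers at 231 (102 to 127), red cell markers at 10355 (745 to 3509), alveolar type 2 markers at 24482 (11776 to 15056) and endothelial markers, lower, at 1106 (1338 to 1415). The sixth was the platelet markers at 27.8 in osimertinib 4 (16.7 to 18.2), the library whose cytotoxic genes lay at the control level. Their part in the levels of the 10 genes was not tested.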

How the results depend on the processing

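Limits first: in the 4 libraries with the high read share 1 to 37 reads carried each of the 10 genes, which limits the precision of every value with naphthalene. Of 696 recomputed log2 differences of the 10 genes, 52 changed sign. The count of the 10 genes called, 0 in each comparison, stayed 0 in every setting run except equal totals. With equal totals all 10 were called lower in naphthalene against control, where 15739 of all 16549 genes were called lower and the median gene was at −1.45. In osimertinib against naphthalene 3 (Prf1, Nkg7 and Klrd1) were then called higher, where 14396 of all 16549 genes were called higher and the median gene was at 1.10. These counts thus follow the shift of nearly all genes and are no result about the 10. DESeq2 gave no adjusted p for the 10 genes in naphthalene against control, so it gave no count there, and with a minimum mean of 5 only Gzma and Ccl5 of the 10 were tested.

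Over all genes, naphthalene against control called 0 genes, and 15763 with equal totals (24 higher, 15739 lower), 21 with only the 2 groups, 5 with array weights, 38 without osimertinib 2 and 3, 2 with the read-share term, 11 with DESeq2 and 0 to 12 with 1 library left out. Osimertinib against naphthalene called 0, and 14420 (14396 higher, 24 lower), 1, 4, 47, 2, 21 and 0 to 11 in the same order. Osimertinib against control called 1, and 96 with equal totals (10 higher, 86 lower), 149 with array weights, 0 with the replicate block, 2 without osimertinib 2 and 3, 2 with the read-share term, 75 with DESeq2 and 0 to 2 with 1 library left out. The replicate block, which matches the libraries of all groups by number, changed no other call. In osimertinib against control the correlations by number were −0.038, 0.075 and −0.15. There the block put 8 of the 10 genes at an unadjusted p under 0.05 in limma (4 without the block), with a median of −0.68. With the block, 525 of all 16225 genes were lower at that level. Osimertinib 4 and 5 have no partner here either, so the −0.68 describes osimertinib 1, 2 and 3 alone against control. It leaves out the 2 osimertinib libraries with the highest sums of the 10 genes. The cause of the other moves was not tested.

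For naphthalene against control the sign turned for Gzma with a pseudocount of 5 (0.0073), median-ratio rescaling (0.052), edgeR (0.031) and DESeq2 (0.092), for Eomes with DESeq2 (0.060), and for Ccl5 with equal totals (−1.27) and array weights (−0.032). With the read-share term it turned for Gzma (1.10), Gzmb (0.15), Prf1 (0.24), Klrd1 (0.25), Klrb1c (0.49) and Ncr1 (0.49). With 1 library left out these differences spanned −0.23 to 0.21 for Gzma, −0.18 to 0.11 for Gzmb, −0.27 to 0.073 for Klrb1c, −0.15 to 0.0047 for Ncr1, −0.45 to 0.34 for Eomes and −0.18 to 0.33 for Ccl5.

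For osimertinib against naphthalene equal totals gave 0.49 for Gzma, 0.58 for Gzmb, 0.72 for Prf1, 0.85 for Nkg7, 0.48 for Ccl5, 0.69 for Klrd1, 0.44 for Klrb1c, 0.35 for Ncr1, 0.32 for Eomes and 0.57 for Tbx21. Array weights gave 0.028 for Prf1, 0.092 for Nkg7, 0.088 for Klrd1 and 0.17 for Tbx21. Without osimertinib 2 and 3 Prf1 was at 0.11, Nkg7 at 0.11 and Tbx21 at 0.19, and with edgeR Nkg7 was at 0.023 and Tbx21 at 0.033. With 1 library left out the span was −0.14 to 0.031 for Nkg7, −0.43 to 0.22 for Klrd1, −0.78 to 0.020 for Eomes and −0.15 to 0.13 for Tbx21. For osimertinib against control no sign turned in any of the 24 settings run.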
